A study of Mus musculus with 4 samples.

Results

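Keratins are the intermediate filament proteins of epithelial cells, and this account describes all genes of the family in eye tissue of mouse embryos of 2 Anp32b genotypes. Members were all genes whose symbol is Krt followed by a number and at most 1 letter, which gave 51 of the 18702 genes listed in each library, 27 of type I and 24 of type II. Total RNA was sequenced from 4 libraries of C57BL/6 mice, 2 of the wild type (Anp32b+/+) and 2 labelled as knockout (KO, Anp32b−/−). The labels give no embryonic stage, sex, pooling or description of the null allele, nor do they say whether libraries of a genotype stem from different embryos. The p-values therefore describe the spread between these libraries only, which may be technical.

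Keratin filaments are built from obligate pairs of an acidic type I and a basic or neutral type II protein, so the partners of a pair are usually made in the same cells. Simple epithelia use Krt8 with Krt18, basal cells of stratified epithelia use Krt5 with Krt14 or Krt15, and cells that leave the basal layer switch to other pairs such as Krt1 with Krt10 in epidermis and Krt4 with Krt13 in mucosa. Around the eye the pairs of stratified epithelia mark tissues that surface ectoderm forms, such as cornea, conjunctiva and eyelid skin with hairs and glands. Krt12 is the keratin that marks differentiated corneal epithelium.

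The type I genes lie in 1 cluster on chromosome 11, apart from Krt18, which sits with the type II genes on chromosome 15. In all, 26 members are on chromosome 11 and 25 on chromosome 15. The sequences that follow show the 250 bases before the start site of the most abundant type II member, Krt5, which was higher in the knockout, and of Krt12 and Krt73, the members that were lower. They come from RefSeq, build GRCm38.p6, minus strand, 5′ to 3′. The start site used for Krt12 lies inside the span that RefSeq gives for the gene, so its window falls within that span, while those of Krt5 and Krt73 lie outside theirs. Capitals mark matches to the TATA box letters TATAAA or to the homeodomain core TAATTA.
Krt5, chr15:101712906-101713155: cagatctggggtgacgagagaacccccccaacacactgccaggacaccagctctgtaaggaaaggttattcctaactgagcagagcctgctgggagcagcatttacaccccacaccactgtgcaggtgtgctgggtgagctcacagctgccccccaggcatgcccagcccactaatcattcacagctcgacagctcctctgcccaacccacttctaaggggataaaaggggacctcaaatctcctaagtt
Krt12, chr11:99422260-99422509: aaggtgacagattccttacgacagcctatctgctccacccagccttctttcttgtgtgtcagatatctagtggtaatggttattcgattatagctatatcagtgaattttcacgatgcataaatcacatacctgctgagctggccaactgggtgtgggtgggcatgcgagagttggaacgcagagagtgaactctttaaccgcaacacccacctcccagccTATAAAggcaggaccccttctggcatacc
Krt73, chr15:101802361-101802610: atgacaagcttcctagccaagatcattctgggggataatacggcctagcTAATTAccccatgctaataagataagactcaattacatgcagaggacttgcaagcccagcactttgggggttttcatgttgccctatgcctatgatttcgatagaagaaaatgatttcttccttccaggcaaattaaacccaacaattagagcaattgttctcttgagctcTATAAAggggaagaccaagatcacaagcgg

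Motifs were searched on both strands, and none overlapped another in these windows. The TATAAA match began 29 bases before the start site in Krt12 and 30 bases before it in Krt73. TATAAA was present in 12.4% of all 32851 windows of this length and in 17 of the 35 windows available for 34 of the keratin genes. TAATTA, which began 201 bases before the start site of Krt73, was in 4.84% of all windows and in 5 keratin windows. The AP-2 letters GCCNNNGGC (13.7% of all windows, 5 keratin windows) and the AP-1 letters TGANTCA (6.75%, 2 keratin windows of 1 gene) were in none of the sequences shown. The Krt12 window overlaps 2 annotated exons, counted on either strand and without recording their gene. These matches describe letters and are not evidence of binding.

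Expression is given as FPKM, fragments per kilobase of transcript scaled to the size of the library, which allows levels of different genes to be compared. Low values placed the depth of the libraries at about 17760000 to 17880000 fragments, so that 1 fragment of Krt5 was worth about 0.026 FPKM. Differences between genotypes are log2 fold changes of FPKM + 1, knockout minus wild type, fitted with limma over 13887 genes that averaged 1 FPKM or more. A gene was called at an adjusted p under 0.05. The targeted gene Anp32b measured 163.18 and 179.12 FPKM with the wild-type label and 94.53 and 92.67 FPKM with the knockout label, a remainder of 54.7%. Knockout stands in what follows for the libraries labelled so. Eye regions moved in different directions in these libraries. All 12 lens markers were called lower (median log2 fold change −3.37), as were 11 of 12 retina markers (median −0.44). Of 8 melanocyte and pigment epithelium markers 7 were tested, 5 were called lower and 0 higher (median −0.39). All 12 mesenchyme markers and all 12 skeletal muscle markers were called higher (medians 1.09 and 1.06). Over all genes tested, 33.5% were called higher and 21.1% lower. No marker of these lists was at 0 in every library. The lens markers summed to 39013 and 39915 FPKM in the wild type and 3881 and 3889 FPKM in the knockout, the mesenchyme markers to 1635 and 1603 FPKM and to 3536 and 3559 FPKM. Their part in the keratin results was not tested. In tissue RNA of this kind, more cells of a type and more RNA per cell cannot be told apart.

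Keratin transcripts as a family were 1.88 times as high in the knockout, and the corneal keratin Krt12 and the inner root sheath keratin Krt73 went the other way. The summed FPKM of the 51 genes reached 758.1 and 781.2 under the wild-type label and 1451 and 1449 under the knockout label. Keratins made up 0.164% and 0.167% of all FPKM in wild-type tissue and 0.340% and 0.337% in knockout tissue. Of the 20 members that averaged 1 FPKM or more, 16 were called higher, where 33.5% of all genes tested were called higher. The 2 called lower compare with 21.1% of all genes, and the 18 called in either direction with 54.6%. These background shares depend on scaling and came with TPM to 47.8% higher against 11.4% lower, and to 25.4% higher and 31.2% lower with scaling that leaves out crystallin and erythroid genes. The keratins had 17 higher and 3 lower of 22 tested in the former and 16 higher and 2 lower of 20 in the latter. Krt75 and Krt79 passed the level only through the knockout and so had to differ. Among the 18 that averaged 1 FPKM or more in each genotype, 14 were higher and 2 lower. The tested members had a median log2 fold change of 0.87, beside 0.04 over all genes tested. In 19 of the 20 the values of the genotypes did not overlap, which was true of 77.9% of all genes tested.

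**Figure D1:**
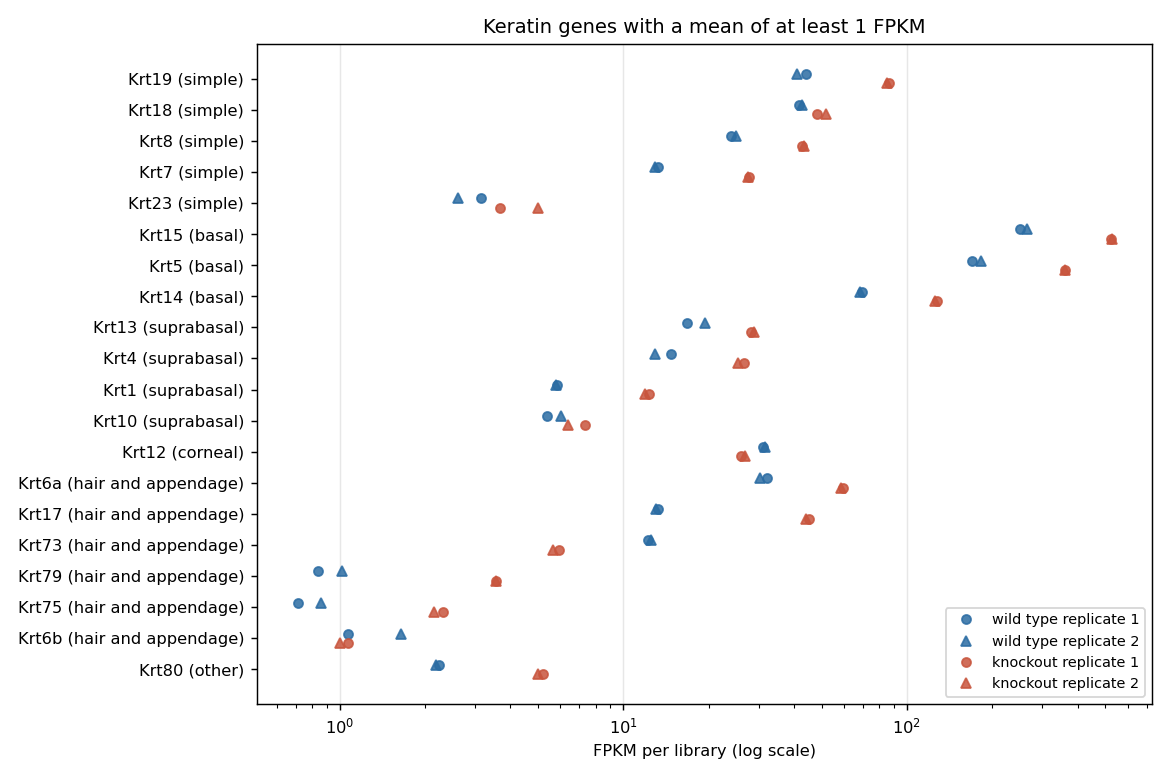
Each point is the FPKM (log axis) of 1 library for the 20 tested keratin genes, ordered by class. Basal keratins Krt15 and Krt5 lie furthest to the right, and the knockout points lie to the left of the wild-type points for Krt12 and Krt73.

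The basal pair dominated the family. Krt15, a type I keratin of basal cells that is typical of corneal limbus and hair bulge, was the most abundant member. Wild-type libraries had 251.35 and 264.86 FPKM of it and knockout libraries 523.21 and 527.68 FPKM (log2 fold change 1.02, SE 0.03, adjusted p = 1.87e-06). Krt5 (Entrez 110308, GRCm38 chromosome 15, positions 101707069 to 101712905), the type II partner of basal cells, had 170.06 and 181.94 FPKM in the wild type. Its knockout values were 362.28 and 359.87 FPKM (log2 fold change 1.03, SE 0.04, adjusted p = 2.57e-06). Both genes were thus about 2.0 times as high in the knockout (ratios 2.04 and 2.05), with both knockout libraries above both wild-type libraries. Krt14, the other type I partner of Krt5, rose a little less, from 69.56 and 68.31 FPKM to 128.17 and 125.46 FPKM (0.87, SE 0.03, adjusted p = 1.96e-06). The 3 basal genes made 64.8% and 65.9% of all keratin FPKM in the wild type and 69.9% in either knockout library. The ratio of Krt14 and Krt15 together to Krt5 was 1.89 and 1.83 in the wild type and 1.80 and 1.81 in the knockout, or 0.972 of its wild-type value.

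Among the simple keratins, 5 of the 6 genes were tested and all 5 were called higher, but by unequal amounts. Krt19, a small type I keratin found in simple epithelia and in conjunctiva, went from 44.14 and 40.91 FPKM to 86.62 and 85.07 FPKM (log2 fold change 1.00, SE 0.04, adjusted p = 4.18e-06). Krt7, a type II keratin of ducts and glands, went from 13.29 and 12.92 FPKM to 27.85 and 27.60 FPKM (1.03, adjusted p = 2.82e-06). These rises were of the size seen for Krt5. Krt8, the type II keratin of simple epithelia, went from 23.90 and 25.04 FPKM to 42.67 and 43.19 FPKM (0.79, adjusted p = 6.66e-06). Its usual partner Krt18 rose by much less, from 41.68 and 42.78 FPKM to 48.21 and 51.87 FPKM (0.24, SE 0.04, adjusted p = 0.00275). As a result the ratio of Krt18 to Krt8 was 1.74 and 1.71 in the wild type and 1.13 and 1.20 in the knockout. These genes are neighbours on chromosome 15, and the ratios of the genotypes did not overlap. Of the 50-base stretches of Krt8 transcripts, 29.7% also occur in another gene, among them Krt8-ps, so its level is uncertain, while for Krt18 the share is 0.72%. With 2 libraries against 2, an exact permutation test has 6 splits, of which 2 give the most extreme result, and cannot pass the threshold, so no ratio was tested. Krt23, a type I keratin of glandular epithelia, had 3.14 and 2.62 FPKM in the wild type and 3.67 and 4.99 FPKM in the knockout (0.45, SE 0.13, adjusted p = 0.0219). This call rested on single libraries. It was lost without wild-type replicate 1 (adjusted p = 0.0532), without wild-type replicate 2 (0.148), without knockout replicate 2 (0.132) and without the filter on low values (0.0803). Krt20, a keratin of gut and bladder lining, was under the level tested in all libraries, at 0.25 to 0.52 FPKM.

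Suprabasal keratins mark cells that have left the basal layer, and 4 of the 9 genes reached the level tested. Krt4 and Krt13 form the pair of mucosal epithelia such as conjunctiva. Krt4 went from 14.71 and 12.92 FPKM to 26.70 and 25.37 FPKM (log2 fold change 0.87, SE 0.06, adjusted p = 4.25e-05). Krt13 went from 16.78 and 19.44 FPKM to 28.24 and 28.88 FPKM (0.63, SE 0.06, adjusted p = 0.000224). The ratio of Krt13 to Krt4 was 1.1407 and 1.50 in the wild type and 1.06 and 1.1384 in the knockout, so the genotypes all but touched. Krt1, the type II keratin of the epidermal spinous layer, went from 5.85 and 5.81 FPKM to 12.28 and 11.93 FPKM (0.94, SE 0.05, adjusted p = 1.11e-05). Its partner Krt10 had 5.36 and 6.05 FPKM in the wild type and 7.30 and 6.36 FPKM in the knockout and was just short of the threshold (0.22, SE 0.08, adjusted p = 0.0540). It was called higher with the deposited TPM values (adjusted p = 0.0114) and with the stricter filter (0.0493). Krt10 per Krt1 was 0.916 and 1.04 in the wild type against 0.594 and 0.533 in the knockout. The other 5 suprabasal genes, Krt2, Krt9, Krt76, Krt77 and Krt78, stood at 0.20 FPKM or less in every library.

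**Figure D2:**
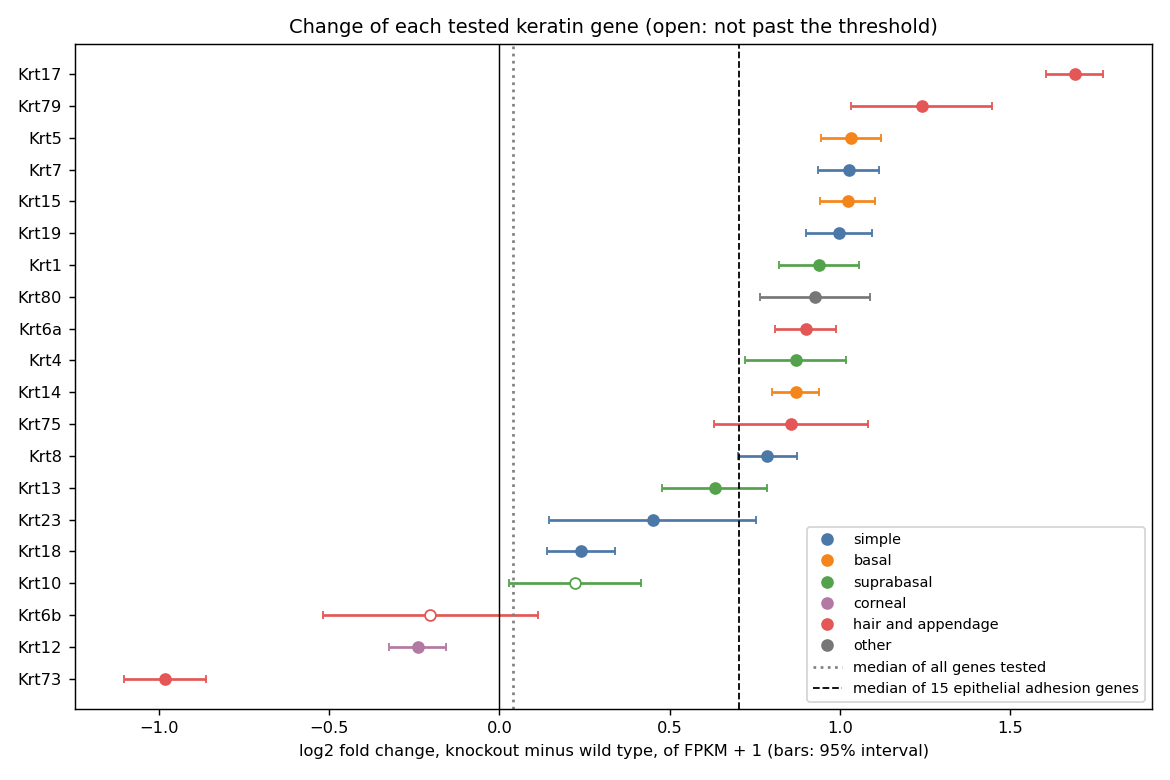
Points are log2 fold changes of FPKM + 1, knockout minus wild type, with 95% intervals for the 20 tested keratin genes, coloured by class, and open points did not pass the threshold. The dashed line is the median of 15 epithelial adhesion genes (0.71) and the dotted line that of all genes tested (0.04), and Krt17 lies furthest above both while Krt12 and Krt73 lie below 0.

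Krt12 (Entrez 268482, GRCm38 chromosome 11, positions 99415664 to 99422593), the type I keratin of corneal epithelium, was lower in the libraries labelled as knockout. Wild-type libraries had 31.20 and 31.59 FPKM and knockout libraries 26.02 and 26.83 FPKM, 84.2% of the wild-type mean (log2 fold change −0.24, SE 0.03, adjusted p = 0.00115). Its log2 fold change was negative under all 11 alternatives that refitted the data, at −0.32 to −0.13. Krt12 was called lower under the changes of pseudocount, filter, unit, scaling and block. It was not called with a required log2 fold change of at least 1. Measured against the basal keratin of the same libraries the distance was larger. Krt12 per Krt5 was 0.183 and 0.174 in the wild type and 0.0718 and 0.0746 in the knockout, 0.410 of the wild-type ratio. Exons of the antisense gene A830036E02Rik cover 54.4% of the exon bases of Krt12, and the labels do not say whether strand was used in counting. Fragments of these genes therefore cannot be told apart. Pax6, the eye regulator known as an activator of Krt12 in cornea, measured 160.94 and 158.43 FPKM in wild-type libraries and 107.76 and 110.97 FPKM in those labelled as knockout (−0.54, adjusted p = 1.28e-05). It is also made by retina and lens.

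Other genes of cornea and conjunctiva were mostly called higher. Of 12 listed genes 11 were in the data, 7 were tested, 5 were called higher and only Pax6 was lower, with a median of 0.60. The background for this and the lists that follow is 33.5% higher and 21.1% lower. The membrane mucin Muc4, named after its values were seen, passed the level only through the knockout (means of 0.98 and 2.13 FPKM) and so had to differ. Lypd3, a membrane protein of suprabasal keratinocytes, rose by 0.63 on the log2 scale (adjusted p = 0.000352). Aldh3a1, the dehydrogenase abundant in mature cornea, had 2.13 and 2.30 FPKM in the wild type and 3.42 and 3.10 FPKM in the knockout (0.41, adjusted p = 0.00485), and was chosen after its values were seen. The goblet cell and surface mucins Muc5ac and Muc16 were listed at 0 in every library.

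The hair and appendage class held both the largest rise and the largest fall of the tested family on the log2 scale. Krt17 (Entrez 16667, GRCm38 chromosome 11, positions 100256215 to 100261029), a type I keratin of developing appendages, periderm and stressed keratinocytes, had 13.28 and 13.09 FPKM in the wild type. It reached 45.32 and 44.25 FPKM in the knockout, 3.40 times the wild-type mean (log2 fold change 1.69, SE 0.04, adjusted p = 2.91e-07). The 95% interval of this change, 1.61 to 1.77, lay above that of Krt5, which was 0.94 to 1.12. Within libraries, Krt17 per Krt14 was 0.191 and 0.192 in the wild type and 0.354 and 0.353 in the knockout. Krt6a, a type II partner of Krt17 in hair follicles and activated keratinocytes, rose about as much as the basal keratins, from 32.07 and 30.27 FPKM to 59.61 and 58.46 FPKM (0.90, SE 0.04, adjusted p = 4.40e-06). Krt17 thus gained on Krt6a as well, at 0.414 and 0.432 of it in the wild type and 0.760 and 0.757 in the knockout. Krt6b, the near copy of Krt6a, was low, at 1.07 and 1.65 FPKM in the wild type and 1.07 and 1.00 FPKM in the knockout (−0.20, SE 0.13, adjusted p = 0.237). Without wild-type replicate 1 it was called lower (−0.38, adjusted p = 0.0447). Of the 50-base stretches of Krt6a and Krt6b transcripts, 57.2% and 50.1% also occur in another gene. The genes concerned include each other and Gm5478, so their levels and the split of reads between them are uncertain. For Krt5, Krt14 and Krt17 this share was 12.2%, 13.9% and 3.99%. Exons of the antisense gene Gm49428 cover 19.5% of the exon bases of Krt6a.

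Krt73 (Entrez 223915, GRCm38 chromosome 15, positions 101793304 to 101802360), a type II keratin of the hair inner root sheath, was lower by more than any other tested member. Wild-type libraries had 12.26 and 12.50 FPKM and knockout libraries 5.91 and 5.63 FPKM, 46.6% of the wild-type mean (log2 fold change −0.98, SE 0.05, adjusted p = 1.07e-05). Krt73 per Krt5 came to 0.227 of its wild-type ratio. The other inner root sheath keratins were not at comparable levels. Krt71 and Krt72 were at 0.10 FPKM or less in every library, and Krt25, Krt26, Krt27 and Krt28 at 0.47 FPKM or less. At these low levels Krt25 and Krt28 had both knockout values above both wild-type values, opposite to Krt73. Krt28 had 0.25 FPKM in each wild-type library and 0.47 FPKM in each knockout library. For Krt26, Krt27, Krt71 and Krt72 the genotypes overlapped. Only 1.32% of the 50-base stretches of Krt73 occur in another gene.

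Krt79 and Krt75 were low in the wild type and higher in the knockout. Krt79, a marker of the forming hair canal and of ducts of sebaceous type glands, had 0.84 and 1.02 FPKM in the wild type and 3.56 and 3.55 FPKM in the knockout (1.24, SE 0.09, adjusted p = 3.94e-05). Krt75, of the companion layer of the hair follicle, stood at 0.71 and 0.86 FPKM and at 2.31 and 2.15 FPKM (0.86, SE 0.10, adjusted p = 0.000336). The scale understates changes at such levels, since the ratios of means were 3.82 and 2.84. Krt80, a type II keratin of many epithelia that was placed in no class, went from 2.21 ± 0.028 FPKM in wild type to 5.11 ± 0.148 FPKM in knockout (SD, n = 2; a log2 difference of 0.93, limma adjusted p = 4.78e-05).

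The remaining 31 genes had means of 0.0075 to 0.68 FPKM and were not tested. Of these, 28 stayed under 0.5 FPKM in every library and 16 were listed at 0 in at least 1 library. In 10 of the 31 both knockout values were above both wild-type values, in 8 both were below, and in 13 the genotypes overlapped. Of all 4815 genes that averaged under 1 FPKM, 23.5% were above, 16.3% below and 39.8% without overlap in either direction. Krt222, a truncated keratin-like gene, had 0.79 and 0.75 FPKM in the wild type and 0.33 and 0.34 FPKM in the knockout. Krt90 had 1.05 and 0.67 FPKM in the wild type and 0.61 and 0.40 FPKM in the knockout. The following were picked after their values were seen. The hair shaft keratin Krt33b was listed at 0 in both wild-type libraries and had 0.31 and 0.26 FPKM in the knockout, where 1 fragment is worth about 0.035 FPKM. Krt40, another hair shaft keratin, had 0.40 and 0.18 FPKM in the wild type and was listed at 0 in both knockout libraries. Krt25 of the inner root sheath had 0.05 FPKM in each wild-type library and 0.38 and 0.27 FPKM in the knockout. These values stand for few fragments. With no filter on low values, Krt25, Krt28, Krt33b and Krt35 were called higher and Krt40 and Krt222 lower, with Krt222 (adjusted p = 0.00456) also lower with TPM (0.0137).

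**Figure D3:**
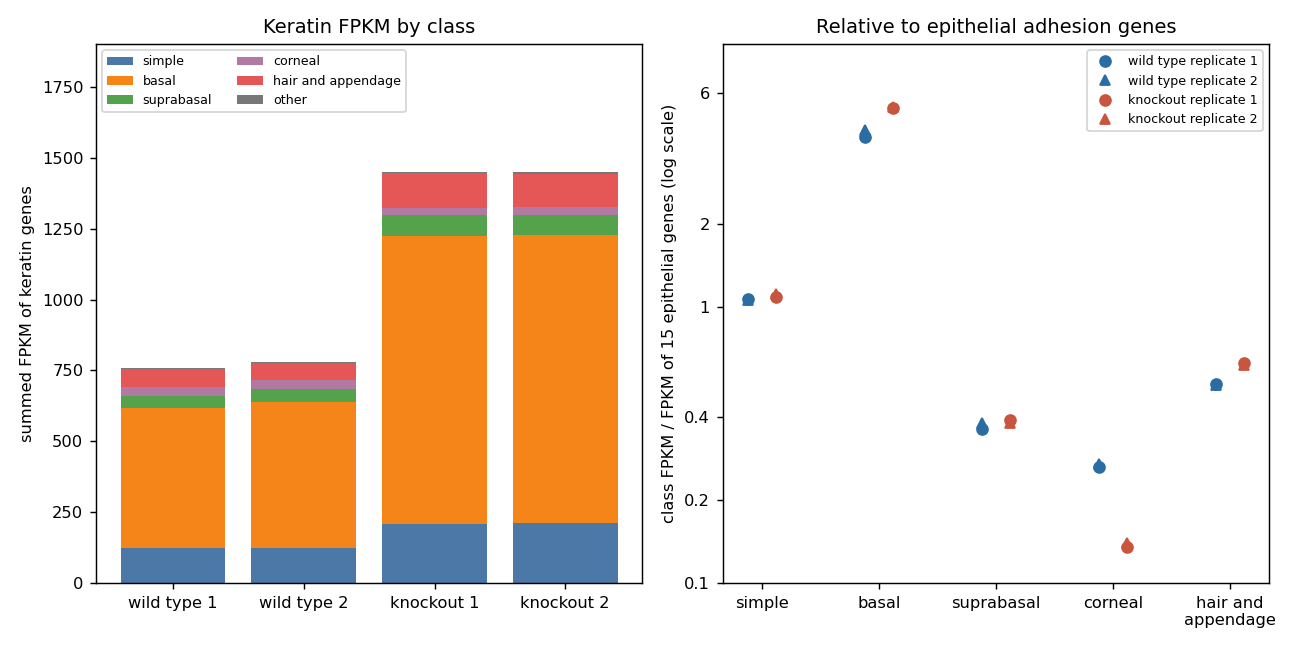
The left panel stacks summed FPKM of keratin genes by class in each library, and the right panel plots each class sum divided by the summed FPKM of 15 epithelial adhesion genes in the same library (log axis). Class sums other than the corneal one are higher in the knockout on the left, and on the right the corneal points are lower in the knockout while the simple and suprabasal points lie close together.

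By class, the ratio of the mean sums of the genotypes was 2.01 for basal keratins, 1.93 for hair and appendage keratins, 1.69 for suprabasal keratins, 1.68 for simple keratins and 0.842 for Krt12. The basal sum was 491.0 and 515.1 FPKM in the wild type and 1014 and 1013 FPKM in the knockout. The simple sum was 126.5 and 124.8 FPKM in the wild type and 209.3 and 213.0 FPKM in the knockout. Genes of epithelial adhesion and identity other than keratins were used as a yardstick, and all 15 were called higher, with a median of 0.71. They included the adhesion molecule Epcam (14.66 and 14.51 FPKM in the wild type, 28.60 and 31.09 FPKM in the knockout, log2 fold change 0.98), the splicing factor Esrp1 (0.92) and the vesicle GTPase Rab25 (1.08). Their summed FPKM was 1.63 times as high in the knockout. Relative to that sum, the simple class was at 1.07 in each wild-type library and at 1.09 and 1.12 in the knockout. The suprabasal class was at 0.364 and 0.381 in the wild type and at 0.391 and 0.381 in the knockout. The basal class was higher relative to the yardstick, at 4.15 and 4.40 in the wild type and 5.29 and 5.30 in the knockout. The hair and appendage class was also higher relative to it, at 0.526 and 0.524 in the wild type and 0.629 and 0.617 in the knockout. Most of that class sum was Krt6a and Krt17, with means of 31.2 and 13.2 of 61.8 FPKM in the wild type. In the knockout they had means of 59.0 and 44.8 of 119.1 FPKM, while Krt73 of the same class was lower. Krt12 was lower relative to it, at 0.264 and 0.270 in the wild type and 0.136 and 0.140 in the knockout. The yardstick is itself a choice of genes, and these ratios were not tested. Spint2 alone gave 44.58 and 44.08 of its 118.3 and 117.0 FPKM in the wild type. In the knockout Spint2 gave 60.18 and 56.91 of 191.5 and 191.0 FPKM. It was 1.32 times as high in the knockout, less than the sum. Without Spint2 the yardstick would rise more, and the change of every class relative to it would be less upward or more downward. This does not mean that every class would then be lower in the knockout than in the wild type. The closeness of the genotypes in the simple and suprabasal classes depends in part on Spint2.

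**Figure D4:**
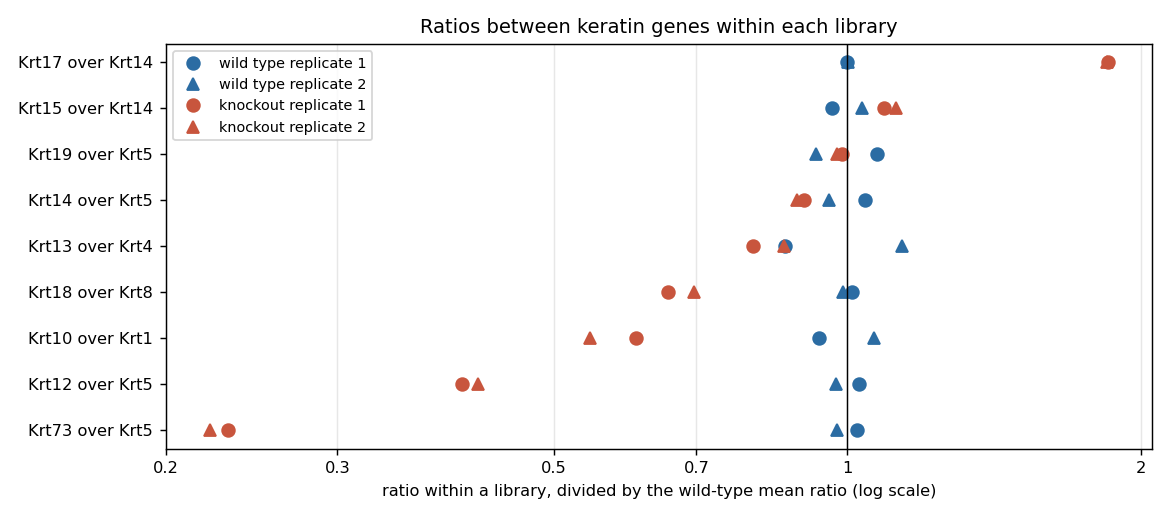
Each point is the ratio between the FPKM of named keratin genes in 1 library, divided by the mean ratio of the wild-type libraries (log axis). Knockout points for Krt17 over Krt14 lie to the right of the line at 1, and those for Krt18 over Krt8, Krt10 over Krt1, Krt12 over Krt5 and Krt73 over Krt5 lie to its left.

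Over the whole family the type I sum divided by the type II sum was 1.72 and 1.71 in the wild type and 1.63 and 1.66 in the knockout. The balance between the types was thus 0.960 of its wild-type value, although single pairs shifted by more. Krt18 per Krt8 was 0.675 and Krt10 per Krt1 0.576 of the wild-type ratio, and in both pairs the type I partner lagged.

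Genes for proteins that anchor keratin filaments were mostly called higher as well. Of 21 listed genes of desmosomes, hemidesmosomes and filament linkage, 18 were tested, 15 were higher and 1 lower, with a median of 0.69. Perp, a desmosomal membrane protein, went from 35.50 and 35.36 FPKM to 67.23 and 66.62 FPKM (log2 fold change 0.90), and Dsp, the desmoplakin that ties keratins to desmosomes, from 12.31 and 12.51 FPKM to 25.45 and 25.27 FPKM (0.98). The hemidesmosomal collagen Col17a1, which helps anchor basal cells, rose by 1.00. The exception was Pkp2, a plakophilin of simple epithelia and heart, at 5.22 and 5.01 FPKM in the wild type and 3.25 and 3.37 FPKM in the knockout (−0.50, adjusted p = 0.000650).

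Of 16 listed transcription factors of surface epithelium 15 were tested and 12 were called higher, with a median of 0.86. Elf3, an epithelial ETS factor, went from 6.76 and 6.24 FPKM to 14.44 and 14.51 FPKM (log2 fold change 1.05), and Ehf, another ETS factor, rose by 0.87. Trp63, the master regulator of stratified epithelium that activates Krt5 and Krt14, had 4.60 and 4.32 FPKM in the wild type and 9.66 and 9.50 FPKM in the knockout (0.95, adjusted p = 1.88e-05). The 1 member called lower was Tfap2a (−0.35), an AP-2 factor of surface ectoderm that is also made in retina. Trp63 and Tfap2a were named after their values were seen.

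Terminal differentiation genes were mostly too low to test. Of 19 listed symbols of the cornified envelope 18 were in the data, 4 were tested and 3 were higher. Krtdap, a secreted peptide of differentiating keratinocytes, went from 7.56 and 7.53 FPKM to 18.93 and 17.55 FPKM (1.17). Sprr1a, a cross-linked envelope protein, went from 0.35 and 0.28 FPKM to 2.69 and 1.84 FPKM (1.30), and passed the level only through the knockout. Tgm1, the cross-linking enzyme, rose by 0.32 (adjusted p = 0.0271). The late envelope genes Flg and Lor, picked after their values were seen, were at 0.01 FPKM or less and at 0.51 to 0.58 FPKM.

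Among 15 listed regulators of hair follicles 11 were tested, 7 were higher and 2 lower, with a median of 0.43, and the latter is close to the 21.1% of all genes tested. The Wnt ligand Wnt10b, made in early hair placodes, went from 2.06 and 2.23 FPKM to 5.60 and 5.68 FPKM (1.08), and Wnt10a rose by 0.60. Lhx2, which is made in hair placodes and at far higher levels in retina, fell from 64.17 and 63.86 FPKM to 47.40 and 48.99 FPKM (−0.40). The hair keratin regulators Foxn1 and Hoxc13, picked after their values were seen, were not tested. Foxn1 had 0.05 and 0.06 FPKM in the wild type and 0.25 and 0.18 FPKM in the knockout, and Hoxc13 had 0.02 FPKM in each wild-type library and 0.11 and 0.13 FPKM in the knockout.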

How the data were processed

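Total RNA of embryonic eye tissue was sequenced in 4 libraries, whose genotype and number come from the titles. For each library the authors deposited FPKM values, per the file headers. TPM values, which sum to the same total in every library, were also deposited. Per the submitters' processing notes, the tools were Cufflinks, DESeq, HISAT2 and TopHat and the builds GRCm38 and GRCh38, with no roles stated. What made the values, the annotation and strand use: not given in the sources used here. FPKM divides by all fragments, so the loss of abundant transcripts raises other values.

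The members, classes and gene lists were chosen with earlier results of these data known. Every keratin with a mean of at least 1 FPKM is named, and of other lists the 3 tested members with the lowest p. Exceptions are marked, and 2 genes that this rule names are not reported here. Values were analysed as log2(FPKM + 1) in limma 3.58.1 under R 4.3.3, with genotype as the single term, a trend of variance with level, 2 residual and 4.89 prior degrees of freedom, and two-sided Benjamini-Hochberg adjustment over 13887 genes. The fit was tested on simulated data. Tables hold no counts. Depth was estimated from low values of 148 to 173 genes with 1 annotated transcript per library. Of these values 54.9% to 61.5% lay within 0.15 of a whole fragment, where chance gives 30.0% at a depth fixed in advance. The depth was the one that best fitted these same values, so some excess was built in. The share is too low to recover counts. With fragments approximated from that depth, chi-square per gene between replicates was 1.97 in the wild type (1424 genes) and 1.86 in the knockout (1465 genes). These values are above what counting noise gives, but they rest on that approximation. Gene positions come from RefSeq, which held all 51 keratin genes, exons and transcripts from GENCODE M21, both on GRCm38. Python 3.11.15 with numpy 2.4.6, pandas 2.3.3 and matplotlib 3.10.9 was used. Alternatives covered the pseudocount, the filter, TPM, library scaling, a replicate block, a fold threshold and leaving out each library.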

Additional observations from a re-analysis of the deposited data

How the results depend on the processing

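For 17 of the 20 tested keratin genes the direction and the side of the adjusted p threshold were the same under every alternative that refitted the data. The exceptions were Krt6b, Krt10 and Krt23, and the fold threshold is treated apart below. The number called higher was 14 to 19 of 16 to 51 tested under changes of pseudocount, filter, unit, scaling and block. In the same settings 24.5% to 47.8% of all genes tested were called higher. The number called lower rose from 2 to 4 with no filter, which admits all 51 genes, where 14.8% of all genes were called lower. With a required log2 fold change of at least 1, 5 of 20 were called higher and 0 lower. Of all genes tested, 1.52% were called higher and 0.828% lower with this requirement. That setting keeps the same limma tests, in which 2 were lower at an adjusted p under 0.05. The median log2 fold change was 0.92 with a pseudocount of 0.1, 1.00 with TPM, 0.80 with scaling that leaves out crystallin and erythroid genes, 0.83 with median-of-ratios scaling and 0.059 with no filter. Leaving out a library gave medians from 0.84 to 0.91. The family sum in the knockout was 2.05 times that of the wild type with TPM, 1.78 times with the scaling that leaves out crystallin and erythroid genes and 1.82 times with median-of-ratios scaling, where FPKM gave 1.88. TPM also raised the median of all genes by 0.12. Relative to that median the same 20 keratins stood at 0.87 with TPM and 0.83 with FPKM, and Krt12 at −0.28 with both. With the replicate number as a block, 17 of 20 were called higher and 2 lower, Krt10 being the addition (adjusted p = 0.0471). The shares of all genes with the block were 34.4% higher and 21.9% lower. The numbers share no stated origin, and over genes the differences between replicates 1 and 2 of the genotypes had a correlation of 0.04. Low members rest on few fragments, which limits what can be said of hair keratins.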
